A study of Mus musculus with 18 samples.

Results

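The expression of 35 genes of glycolysis and of the response to low oxygen was followed after axon injury in cultured sensory neurons. The genes were chosen by name and function, with earlier results of these data known, so the choice was not blind to them. All 35 were found among the 47643 gene identifiers counted. They fell into 7 groups by role. There were 2 oxygen-regulated transcription factors, 2 oxygen-sensing prolyl hydroxylases, 4 genes of glucose entry and phosphorylation, 8 of upper glycolysis, 6 of lower glycolysis, 3 of lactate and pyruvate fate and 10 other hypoxia targets. The cells were embryonic dorsal root ganglion (eDRG) neurons of CD-1 mice, taken at E13.5 and grown as spots in medium with nerve growth factor and the mitotic inhibitor 5-fluorodeoxyuridine (FDU), which all groups received. Control cultures were collected uninjured at day in vitro 7 (DIV7). In the 5 other groups the axons were cut with a blade at DIV7, and the hours from injury to RNA collection (hours post injury, HPI) were 1, 3, 8, 16 and 24. The control was the only uninjured group, so time since injury cannot be told apart from further time in culture. Each group had 3 libraries, 18 in all, and no label or method says whether replicates came from separate litters or cultures, so p-values measure the spread between these libraries. Such cultures hold embryonic neurons without their targets, which limits them as a model of adult nerve.

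Glycolysis splits glucose into pyruvate in the cytosol, which is then burned in mitochondria or reduced to lactate. When oxygen is scarce, prolyl hydroxylases no longer mark the HIF alpha subunits for destruction. The stabilised factors then bind hypoxia response elements and raise transcription of glucose transporters, of nearly every glycolytic enzyme and of genes for vessel growth, mitophagy and collagen hydroxylation. HIF1A is controlled mainly at the level of the protein, so its mRNA is not a measure of its activity.

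The hypoxia response element has the core ACGTG or GCGTG, and 31 of the 35 genes had a promoter window in the RefSeq table (GRCm38.p6). Bhlhe40, Ndrg1, Slc2a3 and Epas1 had none. In the 250 bases before the RefSeq start, read on both strands, ACGTG was present in 14 of 31 members (45.2%), against 16.5% of 27025 genes with a window and 22.1% of those tested here. GCGTG was present in 16 of 31 (51.6%), against 28.3% of all windows and 46.4% of those of tested genes. Either core was present in 23 of 31 (74.2%), against 38.6% and 57.7%. The E-box CACGTG, which contains ACGTG and is the site bound by Bhlhe40 and Mxi1, was in 4 of the 31 windows (12.9%), against 6.04% and 8.57%. These matches are descriptions of the letters in the windows and not binding sites. The windows below belong to members whose expression is described further on, with cores and E-boxes of either strand in capitals (CACGT is ACGTG and CACGC is GCGTG read on the other strand). Slc2a1, which rose at 16 HPI, lies at chr4:119108495-119108744 on the plus strand, with 1 core of each kind. Mxi1, which rose at the same time, lies at chr19:53310256-53310505 on the plus strand and has neither core. Egln3, which fell, lies at chr12:54203875-54204124 on the minus strand with 1 ACGTG. Ldha, at chr7:46845554-46845803 on the plus strand, held 5 ACGTG matches counting both strands. Each of its 2 CACGTG counts as 2 of these, since it reads the same on both strands. Pgk1, at chrX:106186850-106187099 on the plus strand, held 2 ACGTG matches.
Slc2a1: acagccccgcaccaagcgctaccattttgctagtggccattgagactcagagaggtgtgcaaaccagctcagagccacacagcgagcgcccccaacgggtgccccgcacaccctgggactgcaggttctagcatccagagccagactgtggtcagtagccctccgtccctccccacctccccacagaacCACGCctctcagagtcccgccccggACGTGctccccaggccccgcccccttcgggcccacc
Mxi1: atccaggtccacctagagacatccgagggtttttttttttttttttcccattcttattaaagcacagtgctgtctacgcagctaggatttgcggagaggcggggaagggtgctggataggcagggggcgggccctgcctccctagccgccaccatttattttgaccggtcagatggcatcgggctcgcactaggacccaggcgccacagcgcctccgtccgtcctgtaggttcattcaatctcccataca
Egln3: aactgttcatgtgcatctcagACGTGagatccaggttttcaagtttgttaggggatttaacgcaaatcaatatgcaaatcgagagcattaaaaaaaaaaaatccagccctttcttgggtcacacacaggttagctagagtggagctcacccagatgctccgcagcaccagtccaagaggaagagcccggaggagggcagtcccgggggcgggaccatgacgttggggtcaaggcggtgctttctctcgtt
Ldha: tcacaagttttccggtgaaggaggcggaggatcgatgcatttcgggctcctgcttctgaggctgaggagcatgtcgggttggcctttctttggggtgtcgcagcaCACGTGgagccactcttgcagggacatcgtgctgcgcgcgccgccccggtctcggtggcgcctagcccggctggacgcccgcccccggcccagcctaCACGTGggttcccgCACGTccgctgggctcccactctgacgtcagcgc
Pgk1: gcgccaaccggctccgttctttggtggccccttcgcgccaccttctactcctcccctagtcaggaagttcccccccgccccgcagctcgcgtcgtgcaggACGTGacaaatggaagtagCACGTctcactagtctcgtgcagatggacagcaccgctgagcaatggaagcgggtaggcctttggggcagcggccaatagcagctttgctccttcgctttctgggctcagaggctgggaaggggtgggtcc

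Counts on genes ran from 9478891 to 23082327 per library. Levels are given in CPM, the count of a gene relative to all counts of its library, scaled by the trimmed mean of M values (TMM). The filter and the marker and rRNA sums below use CPM without this scaling, whose factors ran from 0.9136 to 1.085 over the libraries. A gene was tested if it exceeded 1 CPM in 3 or more libraries, which left 13771. The labelled cell type was present by its markers, since the summed level of 5 sensory neuron markers was 4025 to 5361 CPM, whereas 5 endothelial markers summed to at most 2.07 CPM and 6 fibroblast markers to at most 19.5 CPM. On this unscaled measure the marker sums moved with time, and gaps between groups may narrow or close with the scaling. The sensory neuron sum was 4731 to 5220 CPM in control, 4025 to 4354 at 16 HPI and 4039 to 4312 at 24 HPI. The sum of 5 myeloid markers was 3.42 to 4.70 CPM in control, 4.87 to 6.002 at 16 HPI and 5.41 to 7.07 at 24 HPI, with Itgam at no more than 1 count in any library. That of 10 markers of satellite glia and Schwann cells was 103 to 117 CPM in control and 92.3 to 120 at 16 HPI, nearly all of it Mbp. Some markers were called against control, which means an adjusted p under 0.05 and over 2-fold change by the test described below. Of 4 tested fibroblast markers 1 was called higher at 16 and 24 HPI, where the sum of 6 was 4.71 to 13.4 and 3.83 to 15.6 CPM against 2.54 to 10.04 in control. The 1 tested neural crest marker of 3 was called higher at 24 HPI (sum 2.03 to 6.12 CPM, control 0.582 to 2.15). Of 4 tested erythroid markers 2 were called lower at 8 HPI and 1 at 16 and at 24 HPI (sum 5.24 to 7.95 CPM at 8 HPI, control 4.85 to 18.2). Over all tested genes, 1.18 and 0.639% were called higher at 16 and 24 HPI. The shares called lower were 0.283, 0.312 and 0.182% at 8, 16 and 24 HPI. The first 16 HPI replicate stood apart with 46011 CPM on residual rRNA fragments, against 6897 to 16985 in the other libraries. The part of these shifts in the results was not tested. In bulk RNA, fewer cells of a type and less RNA per cell cannot be told apart.

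In the uninjured culture, glycolytic enzymes were among the most abundant transcripts. Levels of different genes are compared per exon length, as RPKM, which divides the share of a library's counts by the kilobases of exon, without the TMM scaling. In control, 31 of the 35 members lay above the median of the tested genes, which was 4.33 RPKM. Aldoa, the aldolase of most tissues, led with 538 ± 51.9 RPKM (SD, n = 3), above 99.8% of tested genes. Ldhb, the lactate dehydrogenase subunit that favours lactate use, followed with 336 ± 27.5 RPKM, and the ranges of these genes did not overlap. Pkm, which makes pyruvate and ATP, had 234 ± 18.1 RPKM, Tpi1 had 210 ± 9.86 and Gapdh 196 ± 21.6, and the ranges of these neighbours overlapped.

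Regulators and hypoxia targets were spread over the order, from Bnip3 at rank 10 and Vegfa at rank 14 to the last 4 places. Slc2a1, the GLUT1 glucose transporter, had 11.1 ± 1.17 RPKM and Slc2a3, the neuronal GLUT3 transporter, 38.2 ± 3.53. Hif1a, the oxygen-regulated subunit of HIF-1, had 15.6 ± 2.01 RPKM. Bhlhe40, a transcriptional repressor of the clock and stress response, had 1.54 ± 0.0416 RPKM. Ankrd37 and Mxi1, a MAX-binding repressor that opposes MYC, were lower still, at 0.733 ± 0.139 and 0.671 ± 0.253 RPKM, with overlapping ranges. Epas1, which encodes HIF-2 alpha and is typical of endothelium, had between 0 and 8 counts in the 18 libraries and did not pass the filter, so 34 members were tested. With the length of the longest transcript in place of all exons, Aldoa had 1011 RPKM and Pkm 482 RPKM, ahead of Ldhb with 405 RPKM, and no member moved by more than 4 ranks.

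**Figure D1:**
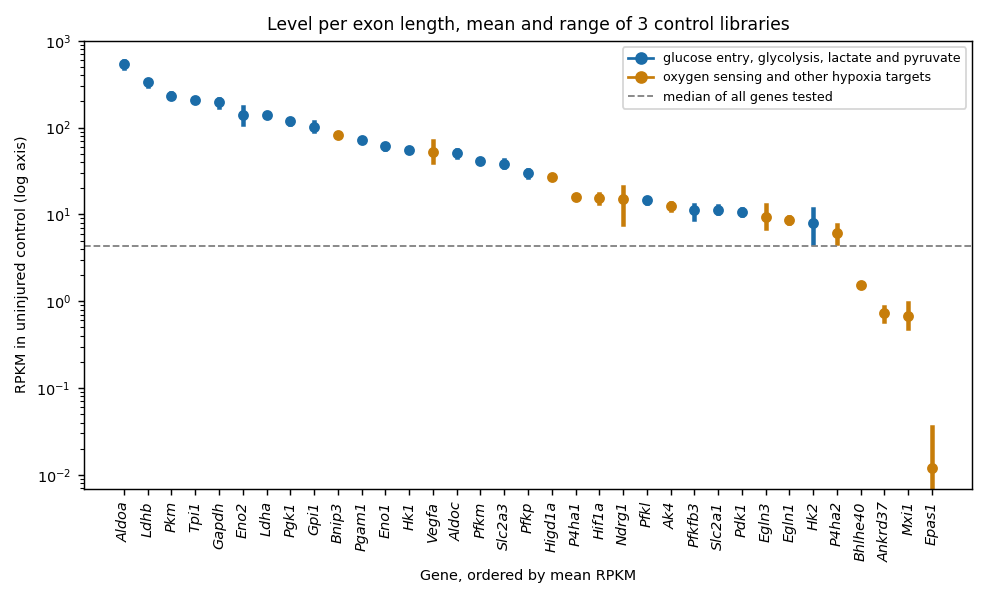
Level of the 35 members in uninjured control, in RPKM on a log axis, with genes in order of their mean. Points are means and bars the range of 3 libraries, the dashed line is the median of all tested genes (4.33 RPKM), and Epas1 stands apart at the bottom because it had between 0 and 4 counts there.

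Between the time points, members were compared with control by edgeR's quasi-likelihood test with the replicate number as a term, adjusted over all 13771 genes. A member "passed the test" with an adjusted p under 0.05 and was "called" if it also changed by over 2-fold, the threshold of the study. No member passed at 1 HPI, where 0.276% of all tested genes did, or at 3 HPI, where 0.189% did. At an unadjusted p under 0.05, 7 of 34 members stood at 1 HPI and 3 at 3 HPI, beside 1769 and 1999 of the 13771 genes. The DESeq2 Wald test, which gave no adjusted p for 4 members at 1 HPI, passed 0 there and 1 at 3 HPI, Pkm, which was 0.20 higher on the log2 scale (adjusted p = 0.0226). Of all genes with an adjusted p, DESeq2 passed 2.34% at 1 HPI and 2.24% at 3 HPI. At 8 HPI 3 members passed, all higher, beside 7.68% of all genes in either direction and 3.78% higher. At 16 HPI 6 passed, 4 higher and 2 lower, beside 22.2% of all genes, 10.7% higher and 11.5% lower. At 24 HPI 3 passed, all lower, beside 15.0% of all genes passing in either direction and 9.03% lower. The members' shares were thus near or below that of all genes at 16 and 24 HPI. Only Bhlhe40 at 8 HPI was called, beside 0.537% of all genes and 0.254% called higher. No member was called at 1, 3, 16 or 24 HPI, where 0.029%, 0.029%, 1.49% and 0.821% of all genes were. Over the whole course, 17 of 34 members differed between time points, 8 of 21 glycolytic and 9 of 13 hypoxia genes, beside 30.0% of all genes.

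**Figure D2:**
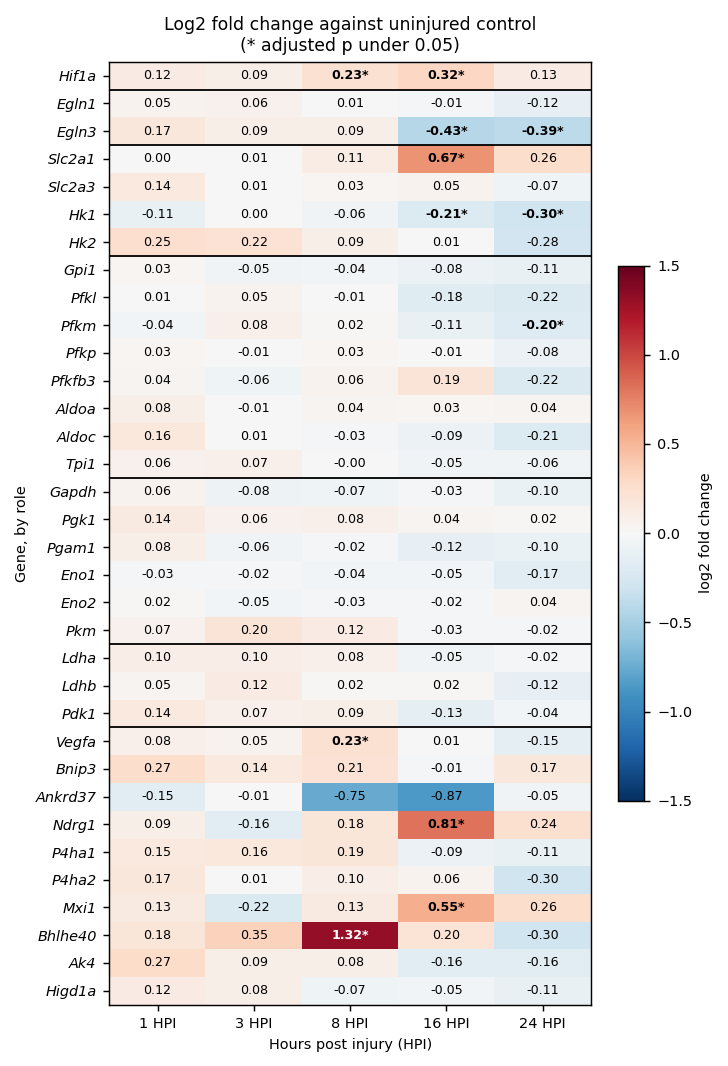
Log2 fold change of each tested member (rows, grouped by role from the transcription factor at the top to other hypoxia targets at the bottom) at each time after injury (columns) against control. Stars mark an adjusted p under 0.05: they are absent at 1 and 3 HPI, sit on hypoxia genes at 8 HPI and on 6 members at 16 HPI, and fall on lower values at 24 HPI.

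Among the messages of oxygen sensing, a factor and a hydroxylase moved in opposite directions. Hif1a rose at 8 and 16 HPI, while Egln3, the inducible prolyl hydroxylase PHD3, fell at 16 and 24 HPI. Egln1, the main prolyl hydroxylase PHD2, did not pass at any time, with log2 fold changes from -0.12 to 0.06.

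Hif1a, at chr12:73901375-73947530 on the plus strand (GRCm38, GENCODE vM21), had 82.0, 103 and 92.1 CPM in the 3 control libraries (replicates 1, 2 and 3, as throughout). It had 98.4, 116 and 111 CPM at 8 HPI and 111, 115 and 118 CPM at 16 HPI. At 1 and 3 HPI its values lay between 89.6 and 108 CPM, and at 24 HPI between 98.5 and 104 CPM. Every 16 HPI library was above every control library, and the other groups overlapped control. The log2 fold change was 0.23 ± 0.0552 (SE) at 8 HPI (1.18-fold, adjusted p = 0.0123) and 0.32 ± 0.0546 at 16 HPI (1.24-fold, adjusted p = 0.000237), higher in 3 of 3 replicates at both times. From 16 to 24 HPI Hif1a fell by 12.3% (adjusted p = 0.0285). Without the replicate number as a term the adjusted p was 0.455 at 8 HPI and 0.0612 at 16 HPI. The 8 HPI call was also lost when control replicate 1 (adjusted p = 0.0719), control replicate 3 (0.0659) or the third 8 HPI library (0.0648) was left out, and the later fall without any of 4 libraries, with adjusted p from 0.0851 (16 HPI replicate 3) over 0.104 (24 HPI replicate 2) and 0.153 (24 HPI replicate 3) to 0.184 (16 HPI replicate 1).

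Egln3 had 23.5, 34.3 and 17.9 CPM in control, 19.8, 20.9 and 14.7 CPM at 16 HPI and 20.3, 23.9 and 13.2 CPM at 24 HPI. The replicates stood in the same order in every group, the second highest and the third lowest, and each library at 16 and 24 HPI was below the control library of its number although the groups overlapped. At 1, 3 and 8 HPI the values ran from 19.7 to 39.2 CPM. Egln3 fell by 25.7% at 16 HPI (log2 fold change -0.43 ± 0.102, adjusted p = 0.00383) and by 23.8% at 24 HPI (-0.39 ± 0.0992, adjusted p = 0.0101). Against 8 HPI it fell by 30.1% at 16 HPI (adjusted p = 0.00174, but 0.538 without the replicate number as a term), and there the groups did not overlap. Without the replicate number as a term the adjusted p were 0.496 at 16 HPI and 0.669 at 24 HPI. Leaving out 16 HPI replicate 2 gave 0.0509 at 16 HPI, and leaving out the second control, the second 24 HPI or the third 24 HPI library gave 0.0790, 0.0504 and 0.0590 at 24 HPI.

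Glucose entry was where a glycolytic gene rose most. Slc2a1 rose by 59.6% at 16 HPI, Hk1 fell at 16 and 24 HPI, and Slc2a3 and Hk2 did not pass the test defined above against control at any time. With the compared groups fitted alone, Slc2a3 passed higher at 1 HPI (adjusted p = 0.0438). In such fits at 24 HPI, Hk2 passed lower (0.0032) and Slc2a1 higher (0.0103). Slc2a1, whose window with 1 core of each kind is printed above, had 38.5, 36.9 and 42.3 CPM in control. It had 40.4, 36.7 and 41.0 CPM at 1 HPI, 40.7, 37.7 and 39.9 CPM at 3 HPI and 39.6, 46.2 and 42.5 CPM at 8 HPI. It reached 69.1, 52.2 and 67.5 CPM at 16 HPI and had 40.5, 50.4 and 49.5 CPM at 24 HPI. All 3 libraries at 16 HPI were above every library of every other group. The log2 fold change at 16 HPI was 0.67 ± 0.0896 (adjusted p = 1.5e-05), the step from 8 to 16 HPI was 1.48-fold (adjusted p = 0.000255), and from 16 to 24 HPI it fell by 25.1% (adjusted p = 0.00372). At 24 HPI it was 0.26 higher than control on the log2 scale with an adjusted p of 0.0578. The 16 HPI rise passed under all 27 alternatives tried, between 0.58 and 0.79, and the fall from 16 to 24 HPI had an adjusted p of 0.0862 without the replicate number as a term.

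Hk1, the hexokinase of neurons and brain that traps glucose as glucose 6-phosphate, had 481, 484 and 469 CPM in control, 422, 421 and 396 CPM at 16 HPI and 352, 418 and 393 CPM at 24 HPI. At 1, 3 and 8 HPI it had between 413 and 487 CPM. The libraries at 1, 8, 16 and 24 HPI lay wholly below control, and those at 3 HPI overlapped it. Hk1 fell by 13.6% at 16 HPI (log2 fold change -0.21 ± 0.0566, adjusted p = 0.00972) and by 18.8% at 24 HPI (-0.30 ± 0.0566, adjusted p = 0.00109). The value at 24 HPI passed under all 27 alternatives. That at 16 HPI was lost without the replicate number as a term (adjusted p = 0.0770), without control replicate 1 (0.0553) or without 16 HPI replicate 3 (0.0511). Hk2, the hexokinase induced by HIF-1 and by growth signals, varied more between replicates, with 29.3, 48.4 and 66.3 CPM in control and 19.9, 45.3 and 53.6 CPM at 24 HPI. By the test defined above, Hk2 passed over the whole course (adjusted p = 0.0143). Among the single comparisons of that test, it passed for 24 against 8 HPI, where it fell by 23.0% (adjusted p = 0.0447). This call held under 17 of 27 alternatives. Slc2a3 stayed within log2 fold changes of -0.07 and 0.14.

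From glucose 6-phosphate to lactate, changes against control were small. Of the 17 members, 8 in upper glycolysis, 6 in lower glycolysis and 3 of lactate and pyruvate fate, only Pfkm passed the test defined above against control, at 24 HPI. With the compared groups fitted alone, Pfkl (adjusted p = 0.0122), Pfkfb3 (0.0064), Aldoc (0.0065) and Eno1 (0.0213) also passed at 24 HPI, all lower. With offsets for GC content and length, Ldhb (0.043) passed lower at 24 HPI, and Pfkm (0.0325) and Pgam1 (0.029) at 16 HPI. The log2 fold changes of the 17 lay between -0.18 and 0.19 at 16 HPI and between -0.22 and 0.04 at 24 HPI. The lowest and the highest bound of their 95% intervals were -0.36 (Pfkl) and 0.36 (Pfkfb3) at 16 HPI, 0.782-fold and 1.28-fold, and -0.39 (Pfkl) and 0.22 (Eno2) at 24 HPI, 0.761-fold and 1.17-fold. A 2-fold change in either direction lay outside every interval at these times, for Gapdh, Pgk1, Tpi1, Aldoa, both enolases, Pkm and both lactate dehydrogenase subunits among others.

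**Figure D3:**
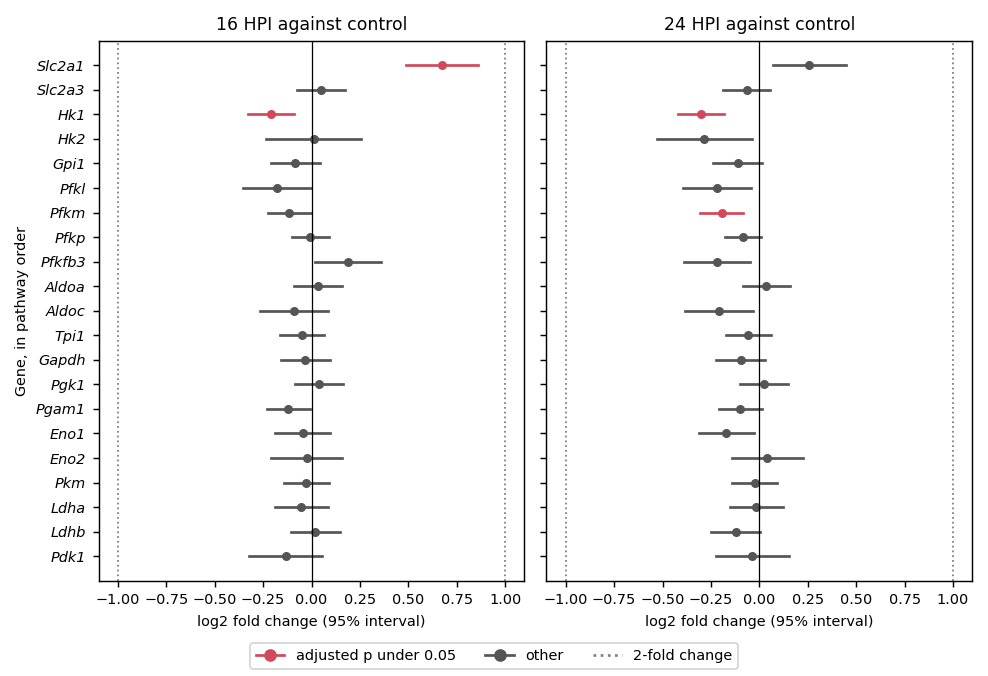
Log2 fold change with its 95% interval for the 21 glycolytic members at 16 HPI (left) and 24 HPI (right), from glucose entry at the top to pyruvate fate at the bottom. Red marks an adjusted p under 0.05: Slc2a1 and Hk1 at 16 HPI, Hk1 and Pfkm at 24 HPI. Dotted lines mark a 2-fold change, which no interval reaches.

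Pfkm, the muscle-type phosphofructokinase, had 136, 137 and 142 CPM in control and 107, 129 and 127 CPM at 24 HPI. It had 130 to 150 CPM at 1, 3 and 8 HPI and 117, 139 and 128 CPM at 16 HPI. The 24 HPI libraries lay below all control libraries. Pfkm fell by 12.7% at 24 HPI (log2 fold change -0.20 ± 0.0532, adjusted p = 0.0158). The call was lost without the replicate number as a term (adjusted p = 0.284), and when the first control (0.0909), the third control (0.0574) or the first 24 HPI library (0.113) was left out. Pfkm shares 18 exonic bases with Senp1 on the other strand, whose counts were 5.58 to 9.43% of those of Pfkm. Pfkp shares 748 with Pitrm1 on the other strand, whose counts were 11 to 14.4% of those of Pfkp. Pfkfb3, the kinase that makes the activator of phosphofructokinase, had 88.1, 87.2 and 115 CPM at 16 HPI and 56.3, 87.0 and 76.5 CPM at 24 HPI, every library lower at 24 HPI. It fell by 24.6% between these times (adjusted p = 0.00270, but 0.383 without the replicate number as a term).

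By the test defined above, none of the 6 members of lower glycolysis passed against control at any time. Pkm, which had the furthest change among them, had 1318, 1182 and 1051 CPM in control, 1454, 1378 and 1228 CPM at 3 HPI and 1307, 1400 and 1149 CPM at 8 HPI. At 1 HPI it had 1391, 1266 and 1063 CPM, at 16 HPI 1223, 1176 and 1079 CPM, and at 24 HPI 1181, 1208 and 1090 CPM. The 3 HPI libraries were each above the control of their number but overlapped control, and the log2 fold change of 0.20 did not pass with edgeR (adjusted p = 0.113). Over the whole course Pkm (adjusted p = 0.0142) and Pgam1 (0.0429) passed, and none of the 3 genes of lactate and pyruvate fate did. Of these 3, Ldhb passed over the course with the likelihood ratio test of DESeq2 (adjusted p = 0.019) and with offsets for GC content and length (0.0157). Pdk1, the kinase that inhibits pyruvate dehydrogenase and so limits the burning of pyruvate, had 93.3, 81.6 and 75.0 CPM in control and 107, 92.2 and 77.4 CPM at 1 HPI. It had 102, 91.5 and 69.4 CPM at 3 HPI and 104, 91.1 and 72.4 CPM at 8 HPI. At 16 HPI it had 81.7, 64.7 and 79.9 CPM and at 24 HPI 84.2, 78.8 and 79.2 CPM, and all groups overlapped control. Ldha, whose window held 5 ACGTG matches with each CACGTG counted on both strands, ranged from -0.05 at 16 HPI to 0.10 at 1 and 3 HPI on the log2 scale.

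Copies of the members that are annotated as pseudogenes also held counts. Of 209 pseudogene copies of 15 members, those of Gapdh held 24.2 to 29.1% as many counts as Gapdh itself, mostly Gm13394, which is 99.9% identical. Those of Eno1 held 7.45 to 10.8%, mostly Gm4735. Levels of Gapdh and Eno1 are therefore uncertain, and adding the copies to their genes left each count of members that passed as it was. Sharing of single reads between a gene and its copies was not measured, so this does not settle the uncertainty.

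Targets outside glycolysis held the furthest changes. Bhlhe40 rose at 8 HPI, Ndrg1 and Mxi1 rose at 16 HPI and Vegfa rose slightly at 8 HPI. By the test defined above, Bnip3, Ankrd37, P4ha1, P4ha2, Ak4 and Higd1a did not pass against control. With the compared groups fitted alone, Bnip3 (adjusted p = 0.0075) and Ak4 (0.0155) passed higher at 1 HPI, and P4ha2 (0.0016) passed lower at 24 HPI. Bhlhe40, which lies at chr6:108660629-108666925 on the plus strand (GRCm38, GENCODE vM21), had 7.54, 7.17 and 7.20 CPM in control. It had 7.22, 7.94 and 9.45 CPM at 1 HPI, 8.81, 8.69 and 10.1 CPM at 3 HPI and 21.4, 14.2 and 18.3 CPM at 8 HPI. It then returned to 8.90, 6.41 and 9.80 CPM at 16 HPI and 6.26, 4.54 and 6.96 CPM at 24 HPI. The 8 HPI libraries were above all others, and the 24 HPI libraries lay below all control libraries. The log2 fold change at 8 HPI was 1.32 ± 0.125 (2.49-fold, adjusted p = 1.82e-06, higher in 3 of 3 replicates) and passed under all 27 alternatives, between 1.16 and 1.40. From 8 to 16 HPI it fell by 53.8% (adjusted p = 7.44e-06) and from 8 to 24 HPI by 67.3% (adjusted p = 8.82e-08). At 24 HPI against control the log2 fold change was -0.30, with an adjusted p of 0.170.

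Ndrg1, a stress-responsive gene of the N-myc downstream regulated family, followed later. It had 53.3, 107 and 133 CPM in control and 133, 178 and 184 CPM at 16 HPI, so that each library rose against the control of its number while the first 16 HPI library lay at the level of the third control. It had 70.7, 108 and 128 CPM at 1 HPI, 62.0, 92.8 and 102 CPM at 3 HPI, 77.7, 134 and 114 CPM at 8 HPI and 73.0, 156 and 112 CPM at 24 HPI. The log2 fold change at 16 HPI was 0.81 ± 0.123 (1.75-fold, adjusted p = 6.37e-05), the step from 8 HPI was 1.55-fold (adjusted p = 0.00155), and from 16 to 24 HPI it fell by 32.7% (adjusted p = 0.00404). Without the replicate number as a term these had adjusted p of 0.236, 0.466 and 0.677. The rise against control passed when any single library was left out. Without control replicate 3 it reached 1.01 on the log2 scale, over 2-fold. The fall to 24 HPI was lost without 24 HPI replicate 3 (adjusted p = 0.0541).

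Mxi1, whose printed window holds neither core, had 3.46, 3.92 and 6.33 CPM in control and 6.91, 5.67 and 7.58 CPM at 16 HPI. It had 3.62 to 4.50 CPM at 3 HPI, 4.91 to 5.21 CPM at 8 HPI, 4.39 to 6.03 CPM at 1 HPI and 4.85 to 6.13 CPM at 24 HPI. The groups overlapped through the third control replicate. The log2 fold change at 16 HPI was 0.55 ± 0.137 (1.46-fold, adjusted p = 0.00570, higher in 3 of 3 replicates), with an adjusted p of 0.143 without the replicate number as a term and 0.0518 without control replicate 1. Vegfa, which recruits vessels and also acts on neurons, had 181, 212 and 287 CPM in control and 233, 262 and 295 CPM at 8 HPI. It had 207 to 291 CPM at 1 and 3 HPI, 188, 207 and 291 CPM at 16 HPI and 157, 203 and 254 CPM at 24 HPI, and all groups overlapped. The log2 fold change at 8 HPI was 0.23 ± 0.0658 (adjusted p = 0.0333), higher in 3 of 3 replicates. It did not pass without the replicate number as a term (adjusted p = 0.898), with the compared groups alone (0.0718), or when the first control (0.134), the second control (0.105), the first 8 HPI (0.152) or the second 8 HPI library (0.126) was left out. From 8 to 24 HPI Vegfa fell by 23.2% (adjusted p = 0.000485, and 0.564 without the replicate number as a term). Hk1, Ndrg1, Mxi1 and Vegfa are described in full because their values had been seen to pass.

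The 6 remaining targets had log2 fold changes against control between -0.30 and 0.27, save Ankrd37. Ankrd37 had 1.37, 1.18 and 0.869 CPM in control and 0.783, 0.397 and 0.649 CPM at 16 HPI, wholly below control, and its log2 fold change was -0.87 (adjusted p = 0.0592). It was also wholly below control at 8 HPI, with 0.848, 0.531 and 0.607 CPM and a log2 fold change of -0.75 (adjusted p = 0.170). At 16 HPI it passed without control replicate 3 (-1.07, adjusted p = 0.0418) and with offsets for GC content and length (-0.91, adjusted p = 0.0432). This low gene shares 57 exonic bases with Ufsp2 and 349 with Lrp2bp on the other strand. Ufsp2 held 441 to 1149 counts per library and Lrp2bp 1 to 10, whereas Ankrd37 held 16 to 27 in control. The strand setting of the counting is not given in the sources used here, and whether reads of Ufsp2 entered the counts of Ankrd37 was not tested. P4ha1, a collagen prolyl hydroxylase subunit, fell by 17.5% from 8 to 16 HPI (adjusted p = 0.00749, but 0.0755 without the replicate number as a term and 0.0554 without 16 HPI replicate 2) after lying above all control libraries at 1, 3 and 8 HPI without passing. Bnip3, a mitophagy receptor, was above all control libraries at 24 HPI, where the log2 fold change was 0.17 (adjusted p = 0.274, but 0.0173 with the compared groups fitted alone).

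**Figure D4:**
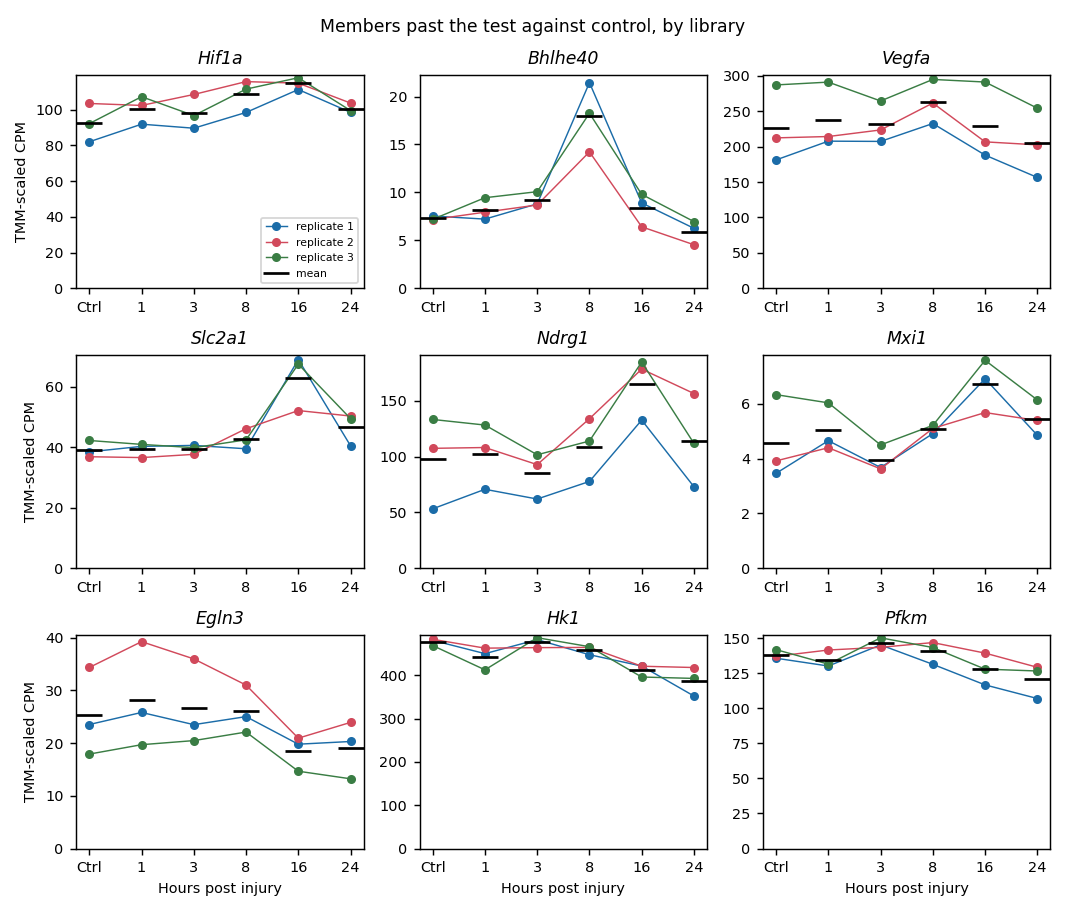
TMM-scaled CPM of the 9 members that passed against control at some time, in each library from control (Ctrl) to 24 HPI. Lines join libraries of the same replicate number and black bars are group means. Bhlhe40 peaks at 8 HPI, Slc2a1, Ndrg1 and Mxi1 at 16 HPI, and Egln3, Hk1 and Pfkm end below control, with replicate numbers far apart in Egln3, Ndrg1 and Vegfa.

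The share of each isozyme within its family changed for the glucose transporters. Slc2a1 made up 22.6 ± 0.599% (SD, n = 3) of the summed RPKM of Slc2a1 and Slc2a3 in control and 31.0 ± 0.461% at 16 HPI, with 30.5 to 31.3% in the 3 libraries against 21.9 to 22.9% in control. At 24 HPI the share was 26.7 ± 2.54%. For the other families the share moved less. Hk2 was 12.4 ± 4.40% of the hexokinases in control and 12.4 ± 4.52% at 24 HPI. Pfkm was 47.9 ± 0.355% of the phosphofructokinase subunits in control and 46.8 ± 1.31% at 24 HPI. With the longest transcript as length its share was 39.7% in control and 38.6% at 24 HPI, and that of Pfkp 38.6 and 40.7%, so their order depends on the length used. Eno2, the neuronal enolase, was 68.8 ± 3.42% of the enolases in control and 71.9 ± 2.41% at 24 HPI, and Ldha was 29.2 ± 2.84% of the lactate dehydrogenases in control and 30.7 ± 2.84% at 24 HPI. Aldoc, the brain aldolase, went from 8.62 ± 0.160% of the aldolases in control to 7.38 ± 0.478% at 24 HPI, where all 3 libraries lay below control. With the longest transcript as length, the control and 24 HPI shares were 7.20 and 7.17% for Hk2, 58.3 and 61.9% for Eno2, 38.4 and 40.1% for Ldha and 5.56 and 4.73% for Aldoc. That of Slc2a1 was 21.3% in control and 29.4% at 16 HPI. The size of a share thus depends on the length used, and that of Eno2 also rests on the uncertain level of Eno1. The shares were not tested.

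**Figure D5:**
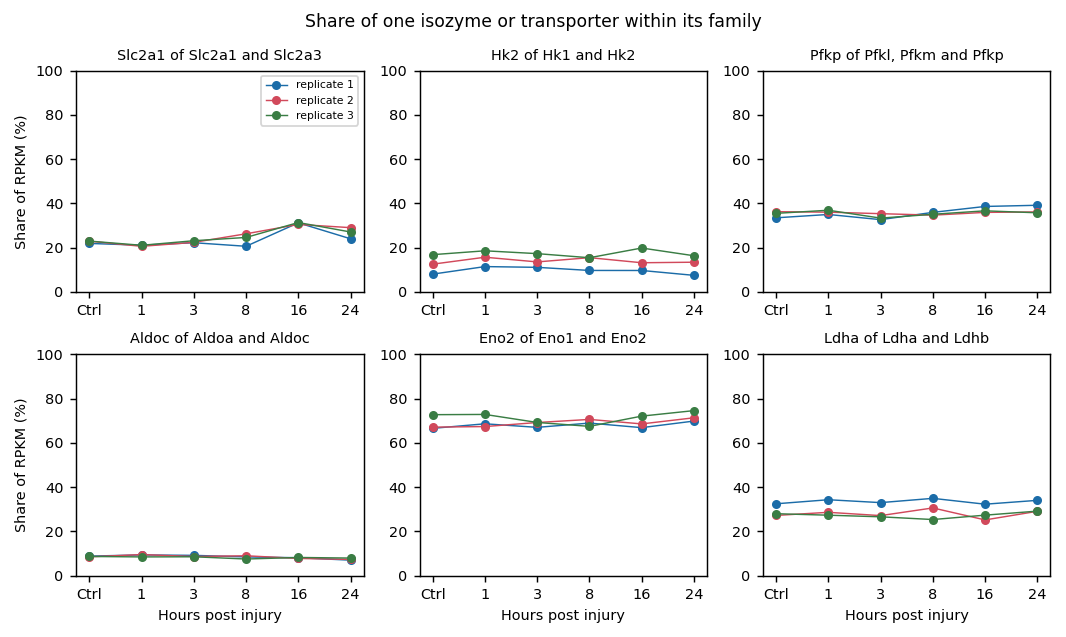
Share of the RPKM of a family held by 1 of its members (percent, vertical axis) in each library from control (Ctrl) to 24 HPI, 1 panel per family. Lines join libraries of the same replicate number. The Slc2a1 share rises to 31.0% at 16 HPI, and the shares of Hk2, Pfkp, Eno2 and Ldha stay near their control values. The Aldoc share falls from 8.62% in control to 7.38% at 24 HPI, a small step on this axis.

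Ordered by group means, members were most often highest early and lowest late. The highest group was 1 HPI for 16 of 34 members, against 11.4% of all tested genes, and the lowest was 24 HPI for 20 of 34, against 17.3%. At 1 HPI 30 of 34 log2 fold changes were above 0 (6978 of 13771 genes), with a median of 0.083 over the members and 0.002 over all genes, yet only 9 of 34 kept 1 direction in all 3 replicates, where 39.6% of all genes did. The members above 0 at 1 HPI numbered between 23 and 32 under the alternatives, the lowest without control replicate 1, and their median fell to 0.05 without 1 HPI replicate 1. At 24 HPI 26 of 34 were below 0, with a median of -0.104 over the members and 0.002 over all genes, and 22 of 34 kept 1 direction in all 3 replicates, beside 49.1% of all genes. The members below 0 at 24 HPI numbered between 22 and 28, the lowest without 24 HPI replicate 1. These comparisons share the control libraries, and members share libraries, so their counts are not independent. The libraries of 4 members lay wholly below control and of 1 wholly above at 24 HPI, beside 7.92% and 8.47% of all genes.

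Within the injured cultures, 1 member passed between 3 and 8 HPI (Bhlhe40, 1.95-fold higher, beside 2.3% of all genes) and 7 between 8 and 16 HPI, 3 higher and 4 lower, beside 15.2%. Between 16 and 24 HPI 5 passed, all lower (Hif1a, Slc2a1, Pfkfb3, Ndrg1 and Bhlhe40), beside 9.82% of all genes in either direction and 6.22% lower. Between 8 and 24 HPI 9 passed, all lower, beside 12.1% in either direction and 7.34% lower. These 9 were Egln3, Hk1, Hk2, Pfkm, Pfkfb3, Vegfa, P4ha1, P4ha2 and Bhlhe40, 4 glycolytic and 5 hypoxia genes. Apart from Bhlhe40 their falls were between 13.9 and 28.3%, and only Bhlhe40 kept its call without the replicate number as a term (adjusted p = 0.000763). The sensory neuron marker sum, without TMM scaling, was 4674 to 4721 CPM at 8 HPI and 4039 to 4312 CPM at 24 HPI. Its part in these falls was not tested.

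The rest of both pathways was read from lists of genes with known function. Of 49 other genes of glycolysis, glucose and lactate transport and pyruvate use, 37 were tested. At 8 HPI 3 rose and 1 fell, at 16 HPI 3 rose and 3 fell, and at 24 HPI 2 rose and 3 fell, with medians of 0.024, -0.036 and -0.066, beside -0.001, -0.002 and 0.002 over all genes. The share that passed was 10.8% at 8 HPI and 16.2% at 16 HPI, and 5 of 37 passed at 24 HPI, beside 7.68, 22.2 and 15.0% of all genes. No gene of this list was called. Slc16a1, the monocarboxylate transporter that carries lactate, rose by 0.35 at 8 HPI and 0.80 at 16 HPI on the log2 scale (adjusted p = 0.00497 and 1.76e-07), and was chosen for mention after its values were seen. Of 51 other genes of the hypoxia pathway, 41 were tested. At 8 HPI 5 rose and 3 fell, at 16 HPI 8 rose and 4 fell, and at 24 HPI 2 rose and 6 fell, with medians of -0.013, 0.060 and -0.076. Here the shares that passed were 19.5, 29.3 and 19.5%. The gene called was Hmox1, heme oxygenase 1, at 8 HPI (log2 fold change 1.07 ± 0.105, adjusted p = 2.02e-06), with 0.92 at 16 HPI (adjusted p = 2.6e-06). Stc2 and Ddit4, also chosen after their values were seen, rose by 0.70 each at 8 HPI (adjusted p = 3.06e-05 and 0.000375). Hmox1, Stc2 and Ddit4 respond to oxidative and endoplasmic reticulum stress as well as to hypoxia.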

How the data were processed

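Total RNA of 18 eDRG spot culture libraries, 3 per group, was sequenced after rRNA depletion. The authors deposited un-normalized read counts per gene, made with STAR on mm10. The study's methods name featureCounts with GENCODE vM20, whereas the submitters' processing notes name HTSeq, and the strand setting is not given in the sources used here. The 5 closing entries that name no gene held 25.2 to 33.2% of all counts and were left out. Symbols and exon lengths came from GENCODE vM21, which named 47224 of 47643 identifiers.

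Genes that exceeded 1 CPM in 3 or more libraries were fitted with edgeR 4.0.16 in R 4.3.3 (TMM, quasi-likelihood, time and replicate number as terms, 2-sided, Benjamini-Hochberg over 13771 genes). Same-numbered libraries deviated together from their group means (45 pairs, r from 0.484 to 0.765, against -0.577 to -0.042 for 90 other pairs), so the numbers were taken to pair the libraries. Deviations from a group mean cancel within the group. The negative values of the other pairs thus largely follow from the positive ones and are not separate support. On simulated counts for 16 HPI minus control, 38 of 50 genes changed 1.5-fold and 47 of 50 changed 2-fold passed. So did 50 of 50 changed 3-fold, 46 of 50 changed 0.333-fold and 10 genes left unchanged. The counts were drawn from the fitted model itself, with far fewer genes changed than passed in the data. These shares may therefore not hold for the real test. DESeq2 1.42.0, other scalings, filters, offsets and models and the removal of each library were the alternatives. RPKM used summed exon length. Depth, 9478891 to 23082327 counts on genes, leaves low genes such as Epas1 (at most 8 counts) unresolved. The members and lists were chosen with earlier results of these data known. Library values are given for members called at any time, for the member of each role group with the largest change among those that passed against control (or, where none did, among all) and for Hif1a, and pathway genes are named if called. Exceptions are stated where they stand, save Hk2, Pfkfb3 and Ankrd37, whose library values in some groups are also given outside this rule.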

Additional observations from a re-analysis of the deposited data

Results flagged for a closer look

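The differences between injured groups at 2 times were tested directly, and these members passed, as log2 differences with the later time first. From 3 to 8 HPI Bhlhe40 gave 0.97. From 8 to 16 HPI the values were 0.56 for Slc2a1, 0.63 for Ndrg1, 0.42 for Mxi1, -0.52 for Egln3, -0.22 for Vegfa, -0.28 for P4ha1 and -1.11 for Bhlhe40. From 16 to 24 HPI they were -0.19 for Hif1a, -0.42 for Slc2a1, -0.41 for Pfkfb3, -0.57 for Ndrg1 and -0.50 for Bhlhe40. From 8 to 24 HPI they were -0.48 for Egln3, -0.25 for Hk1, -0.38 for Hk2, -0.22 for Pfkm, -0.28 for Pfkfb3, -0.38 for Vegfa, -0.30 for P4ha1, -0.40 for P4ha2 and -1.61 for Bhlhe40.

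Bhlhe40 (3 to 8, 8 to 16 and 8 to 24 HPI) and Slc2a1 (8 to 16 HPI) passed under all 27 alternatives, and were the only 4 of these 22 values to pass without the replicate number as a term. Mxi1 from 8 to 16 HPI passed under 12 of 27, with an adjusted p of 0.312 without 8 HPI replicate 3 and 0.186 without 16 HPI replicate 1. Bhlhe40 from 16 to 24 HPI was lost without 16 HPI replicate 1 (adjusted p = 0.0957), 16 HPI replicate 3 (0.118), 24 HPI replicate 1 (0.0624) or 24 HPI replicate 2 (0.102). Vegfa from 8 to 16 HPI was lost without 8 HPI replicate 1 (0.133), 8 HPI replicate 2 (0.113), 16 HPI replicate 1 (0.100) or 16 HPI replicate 2 (0.116). From 8 to 24 HPI, Hk1 (0.0668), Pfkm (0.0790), Hk2 (0.214), Pfkfb3 (0.174) and P4ha2 (0.224) were lost without 24 HPI replicate 1, and the last 3 also without 8 HPI replicate 2, with 0.202, 0.120 and 0.228.

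Counts on pseudogene copies, which were added to their genes only as an alternative, exceeded 3 in every library, summed over the copies, for 9 members. The highest count on copies was 29.056% of that of Gapdh, 10.824% of Eno1, 6.538% of Ldhb, 2.664% of Bnip3, 2.176% of Gpi1, 1.908% of Pgam1, 0.991% of Higd1a, 0.592% of Pkm and 0.266% of Ldha. Single outlying libraries were not tested for in groups of 3.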

How the results depend on the processing

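The 12 member values that passed against control were recomputed under 27 alternatives each, 324 in all. Of these, 297 kept direction and side of the threshold, 27 kept direction but no longer passed, and 0 reversed. Of the 27, 9 came from leaving out the replicate number, so 9 of the 12 values did not pass without it. Among the alternatives, 18 left out 1 library each, and for any 1 value most of these libraries were in neither group compared. Such removals keep every library of the comparison and are a weak check. Each loss on removal of a library came from a library of a compared group. Without the replicate block, members that passed numbered 1 at 8 HPI, 1 at 16 HPI and 1 at 24 HPI, beside 0.443, 5.13 and 1.11% of all genes. Members that passed then numbered 2 between 8 and 16 HPI, 0 between 16 and 24 HPI, 1 between 8 and 24 HPI and 4 over the course. The block changed no other count by over 1.5 times. Shares of all genes are not given beside the counts between injured groups and over the course. Those counts therefore do not set the members apart from a general loss of calls. With the compared groups fitted alone, 3 passed at 1 HPI (Slc2a3, Bnip3 and Ak4, all higher), 12 at 24 HPI (10 lower, Slc2a1 and Bnip3 higher) and 2 between 3 and 8 HPI, beside 3.25, 17.8 and 2.81% of all genes. The 10 lower at 24 HPI were Egln3, Hk1, Hk2, Pfkl, Pfkm, Pfkfb3, Aldoc, Eno1, Vegfa and P4ha2. The DESeq2 Wald test gave 1 at 3 HPI, beside 2.24% of all genes. The cause of these moves was not tested.

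With each library left out in turn, members that passed numbered 0 to 0 at 1 and 3 HPI, 1 to 4 at 8 HPI (1 without control replicate 1), 4 to 7 at 16 HPI, 2 to 5 at 24 HPI (5 without 16 HPI replicate 2), 1 to 1 between 3 and 8 HPI, 5 to 9 between 8 and 16 HPI, 3 to 6 between 16 and 24 HPI (3 without 16 HPI replicate 1, 24 HPI replicate 2 or 24 HPI replicate 3), 4 to 9 between 8 and 24 HPI (4 without 24 HPI replicate 1) and 12 to 19 over the course. Members called numbered 1 to 1 at 8 HPI and 0 to 2 at 16 HPI (Ankrd37 and Ndrg1 without control replicate 3). The share of all genes under each removal is not given here, so these ranges do not set the members apart from all genes. With the longest transcript as length, 26 control levels moved by over 1 SD. No scaling moved the median of all genes by over 0.1.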
